A study of Mus musculus with 9 samples.

Results

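The genes described here are 8 mouse genes whose expression is largely restricted to early embryos, embryonic stem cells and germ cells: Dppa2, Dppa3, Dppa4, Dppa5a, Utf1, L1td1, Tcl1 and Lin28a. Every probe set that the platform annotation assigns to these symbols was taken, which gave 12 of the 45037 probe sets tested, and the 8 genes are among 18193 that could be named. No measured value entered that rule, although the genes were picked with earlier results of these data known. Expression was measured on 9 Affymetrix arrays, 3 for each of 3 cell types, and every library was amplified from 20 sorted cells. VSEL (very small embryonic-like stem cells) were bone marrow cells of C57BL/6 mice aged 4 weeks, sorted as Sca-1-positive, free of lineage markers and without CD45. HSC (haematopoietic stem cells) came from the same kind of marrow by the same gate, but with CD45. ESC are ESC-D3, a single embryonic stem cell line of strain 129S2/SvPas, which was cultured with leukaemia inhibitory factor (10 ng/ml) on dishes coated with 0.1% gelatin and trypsinised before sorting. Strain, age and culture thus differ between ESC and both marrow groups and cannot be told apart from cell type.

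Dppa stands for developmental pluripotency associated, a name given for shared expression and not for shared sequence. Dppa2 and Dppa4 encode a pair of related DNA-binding proteins with SAP domains that act together on chromatin, Dppa3 (Stella) protects the oocyte and early embryo from changes in DNA methylation, and Dppa5a encodes a KH-domain RNA-binding protein. Utf1 is a chromatin protein and a direct target of Oct4 and Sox2, L1td1 an RNA-binding protein derived from a LINE-1 element, Tcl1 a co-activator of the kinase Akt, and Lin28a an RNA-binding protein that blocks maturation of let-7 microRNAs. In textbooks all are silent or low in most adult tissues, although Tcl1 is also used by developing lymphocytes, which is why they are read as signs of an embryonic state.

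Promoter sequences are shown for the members that the RefSeq table of build GRCm38.p6 holds, since 3 of them differed strongly between the cell types and Lin28a did not. The table matched 4 of the 8 genes, L1td1, Lin28a, Utf1 and Tcl1, and held no entry for Dppa2, Dppa3, Dppa4 or Dppa5a. Each window runs from 250 bases before the gene's start to 50 bases after it, on the gene's own strand, and capitals mark CG dinucleotides, the sites that DNA methylation can occupy. The windows are chr4:98726504-98726803 on the plus strand for L1td1, chr7:139943606-139943905 on the plus strand for Utf1, chr12:105222688-105222987 on the minus strand for Tcl1 and chr4:134018767-134019066 on the minus strand for Lin28a.
L1td1: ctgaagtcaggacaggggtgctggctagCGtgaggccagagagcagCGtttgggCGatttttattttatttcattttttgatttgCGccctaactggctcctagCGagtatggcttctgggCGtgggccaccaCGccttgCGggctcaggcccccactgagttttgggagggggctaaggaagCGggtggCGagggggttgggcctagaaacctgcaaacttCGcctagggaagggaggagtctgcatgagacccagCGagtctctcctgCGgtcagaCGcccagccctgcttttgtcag
Utf1: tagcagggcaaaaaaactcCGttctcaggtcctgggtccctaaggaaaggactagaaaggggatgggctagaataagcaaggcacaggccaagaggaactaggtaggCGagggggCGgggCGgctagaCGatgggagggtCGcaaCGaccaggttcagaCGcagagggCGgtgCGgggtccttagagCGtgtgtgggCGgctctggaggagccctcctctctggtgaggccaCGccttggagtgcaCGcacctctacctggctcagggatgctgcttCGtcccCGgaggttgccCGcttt
Tcl1: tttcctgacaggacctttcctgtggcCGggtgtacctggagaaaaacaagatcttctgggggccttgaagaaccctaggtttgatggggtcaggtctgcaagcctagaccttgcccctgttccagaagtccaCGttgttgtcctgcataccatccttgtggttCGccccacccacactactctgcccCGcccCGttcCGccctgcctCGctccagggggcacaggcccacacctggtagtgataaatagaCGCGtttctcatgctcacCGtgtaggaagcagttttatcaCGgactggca
Lin28a: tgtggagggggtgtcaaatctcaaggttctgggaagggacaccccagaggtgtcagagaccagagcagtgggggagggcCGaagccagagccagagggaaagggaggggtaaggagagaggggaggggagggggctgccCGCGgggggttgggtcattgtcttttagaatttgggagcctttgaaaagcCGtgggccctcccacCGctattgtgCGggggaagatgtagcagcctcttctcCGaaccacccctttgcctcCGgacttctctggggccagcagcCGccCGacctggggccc
These windows held 14 CG dinucleotides for L1td1, 17 for Utf1, 11 for Tcl1 and 10 for Lin28a, against a median of 7 and an upper quartile of 20 over the 32851 promoters of the table. The GC box GGGCGG, searched on both strands, occurred 4 times for Utf1, 2 times for Tcl1, 1 time for Lin28a and 0 times for L1td1, and 35.7% of all promoters held it. The octamer ATGCAAAT of Oct4-type factors (1.7% of all promoters), the Sox site CATTGTT (3.8%), the Esrrb half-site AAGGTCA (4.7%) and the TATA box TATAAA (13.6%) were in none of the 4 windows. A match describes letters only, and no match says nothing of a factor's binding elsewhere.

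Values below are the deposited log2 RMA values, and a difference of 1 is a doubling. VSEL arrays 2 and 3 were nearly the same: r over probe sets was 0.989, and over bright probe sets their difference had an SD of 0.199, against at least 0.491 in every other pair of a group. They were averaged into 1 library, VSEL 2+3, so means ± SD and tests rest on 2 VSEL, 3 HSC and 3 ESC libraries, while the values of all arrays are printed. Nothing in the labels ties the libraries to different mice or culture dishes. A p-value here therefore measures no more than the spread among these libraries, and that spread may be technical. A gene was called where limma's adjusted p was at most 0.05 over all probe sets, and a gene with several probe sets was read from that with the highest mean. The lower quartile of all genes lay at 4.72 to 4.80 on the VSEL arrays, 4.49 to 4.53 on the HSC arrays and 4.54 to 4.56 on the ESC arrays. The 95th percentile of 38 olfactory receptor genes, which blood and embryonic cells are not known to use, was 6.27 to 6.45, 5.58 to 5.85 and 5.62 to 5.69 in the same order.

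In VSEL, 6 of the 8 genes were called higher than in HSC, and the same 6 were called lower than in ESC: Dppa2, Dppa4, Dppa5a, Utf1, L1td1 and Tcl1. Of all 18193 genes 9.29% were called higher in VSEL than in HSC and 10.3% lower in VSEL than in ESC. HSC were called lower than ESC for the same 6 as well, where 8.89% of all genes were. The comparisons share groups, so these 3 counts are not independent of each other. The 6 genes lay in the order HSC, VSEL, ESC with no library overlapping between groups, an order held by 4.46% of all genes. Dppa3 and Lin28a were called in no comparison. The median difference over the 8 genes was 3.43 for VSEL minus HSC and -2.23 for VSEL minus ESC, while over all genes it was 0.22 and 0.11. On the linear scale the 6 called genes were 3.87-fold (Dppa2) to 8.78-fold (Utf1) lower in VSEL than in ESC. In HSC, Dppa2, Dppa5a, L1td1 and Tcl1 on every array and Dppa4 on HSC 2 and HSC 3 lay below the olfactory receptor percentile, so their differences from HSC are distances from a level not told from background and no fold is given. Since each library pools 20 cells, fewer cells with a transcript and less transcript per cell cannot be told apart. These need not be the only readings, and the source of the signal in VSEL was not tested.

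**Figure D1:**
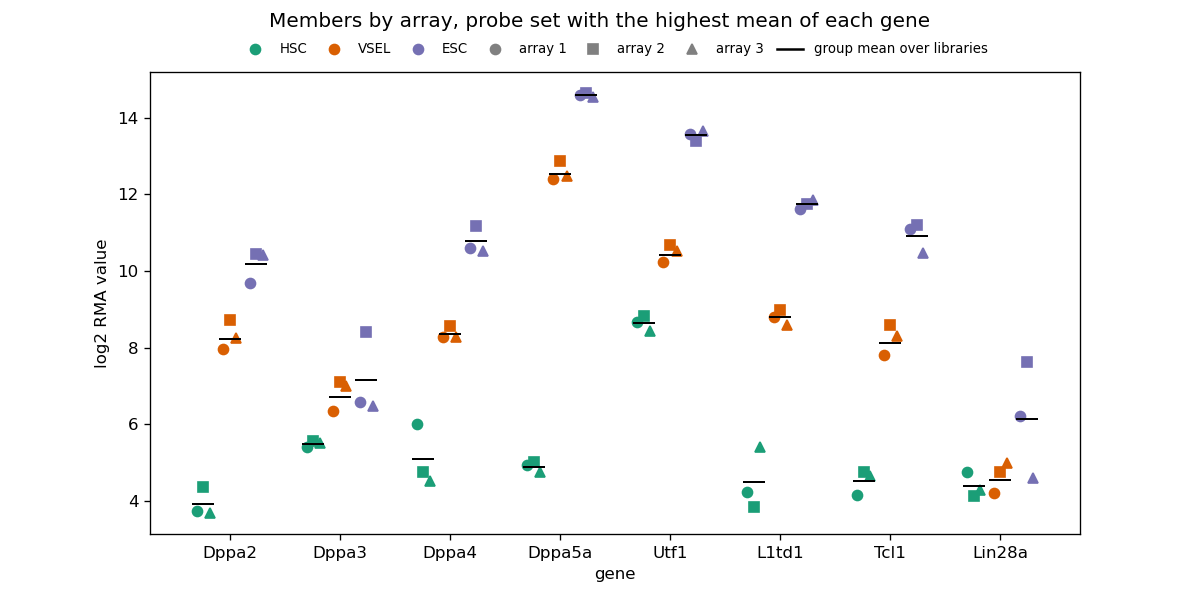
Log2 RMA value (vertical axis) of each of the 8 genes on the 9 arrays; colour gives the cell type, the symbol gives the array number, and black bars are group means over libraries with VSEL 2 and 3 averaged. For Dppa2, Dppa4, Dppa5a, Utf1, L1td1 and Tcl1 the VSEL arrays lie between HSC and ESC, Dppa3 of VSEL overlaps ESC, and Lin28a overlaps in all 3 cell types.

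Dppa5a, the KH-domain gene, had the widest contrast of the 8 members between VSEL and HSC. Its probe set 1416552_at read 12.40, 12.87 and 12.48 on VSEL arrays 1, 2 and 3, then 4.93, 5.01 and 4.76 on the HSC arrays and 14.59, 14.64 and 14.53 on the ESC arrays. The HSC values lay below the olfactory receptor percentile of their arrays, and the 3 cell types did not overlap. VSEL exceeded HSC by 7.64 (SE 0.14, limma adjusted p = 5.94e-06) and fell below ESC with a difference of -2.05 (SE 0.14, adjusted p = 0.001). The gap between HSC and ESC was -9.69 (SE 0.12, adjusted p = 8.42e-07). The SD of Dppa5a was 0.057 among ESC libraries, 0.13 in HSC and 0.19 in VSEL, all small beside those differences.

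The paired genes Dppa2 and Dppa4 showed the same order. Dppa2 (1429654_at) read 7.97, 8.72 and 8.25 in VSEL, 3.73, 4.37 and 3.69 in HSC, and 9.67, 10.44 and 10.43 in ESC. Its second probe set, 1453223_s_at, read 7.19, 8.28 and 7.68 in VSEL, 3.16, 3.35 and 3.51 in HSC, and 9.68, 10.58 and 10.17 in ESC. Both probe sets separated all 3 cell types without overlap. VSEL minus HSC was 4.30 (SE 0.34, limma adjusted p = 0.00101) for the first and 4.24 (SE 0.33, adjusted p = 0.000973) for the second. VSEL minus ESC was -1.95 (SE 0.34, adjusted p = 0.0181) and -2.56 (SE 0.33, adjusted p = 0.00758).

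Dppa4 (1429597_at) read 8.29, 8.57 and 8.28 in VSEL, 6.00, 4.76 and 4.52 in HSC, and 10.59, 11.18 and 10.53 in ESC. HSC 1 stood above the other HSC arrays, yet below every VSEL array. Dppa4 was higher in VSEL than in HSC by 3.26 (SE 0.46, limma adjusted p = 0.00925) and lay at -2.41 from ESC (SE 0.46, adjusted p = 0.0231). The calls of Dppa2 and Dppa4 against ESC were the least firm of the 6. For Dppa2 this call ended without VSEL 1 (adjusted p = 0.065), without ESC 2 (0.0587), without ESC 3 (0.0531) and after cyclic loess (0.0538). Its difference was -1.70, -1.82 and -1.83 without those libraries, in that order, and -1.45 after cyclic loess. For Dppa4 it ended after cyclic loess (0.0715) and on leaving out VSEL 1 (0.0733), VSEL 2+3 (0.0622), ESC 1 (0.0593), ESC 2 (0.0693) or ESC 3 (0.0531). Without a library the Dppa4 difference stayed between -2.53 and -2.21, near the -2.41 of all libraries, whereas after cyclic loess it was -1.71.

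Utf1 was measured by 3 probe sets that differed in level. Probe set 1416899_at read 10.22, 10.67 and 10.52 in VSEL, 8.66, 8.82 and 8.44 in HSC, and 13.57, 13.40 and 13.66 in ESC. All HSC values were well above the olfactory receptor percentile of their arrays. Among the other called genes only Dppa4 on HSC 1 was above it, at 6.00 against 5.58. The VSEL minus HSC difference of Utf1, 1.77 (SE 0.18, limma adjusted p = 0.00252), was the smallest among the 6 called genes, and its VSEL minus ESC was -3.13 (SE 0.18, adjusted p = 0.000666). A second probe set, 1443786_at, gave the same order with differences of 1.38 (SE 0.24, adjusted p = 0.0187) and -2.13 (SE 0.24, adjusted p = 0.00492). It read 6.503, 7.03 and 6.87 in VSEL, 5.03, 5.66 and 5.33 in HSC, and 8.67, 8.82 and 9.08 in ESC. The HSC values of this probe set were below the olfactory receptor percentile, unlike those of the first.

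The third probe set of Utf1, 1458333_x_at, did not follow the others. It read 5.41, 5.57 and 5.70 in VSEL, 4.64, 5.12 and 4.92 in HSC, and 5.09, 5.16 and 5.12 in ESC. Its values in ESC were below the olfactory receptor percentile, and neither comparison with VSEL was called (limma adjusted p = 0.0542 against HSC and 0.156 against ESC). The suffix _x_at marks a probe set that can match several transcripts. Of the 3 probe sets of Utf1, 2 were thus called in each comparison and 1, at a level not told from background, in none.

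**Figure D2:**
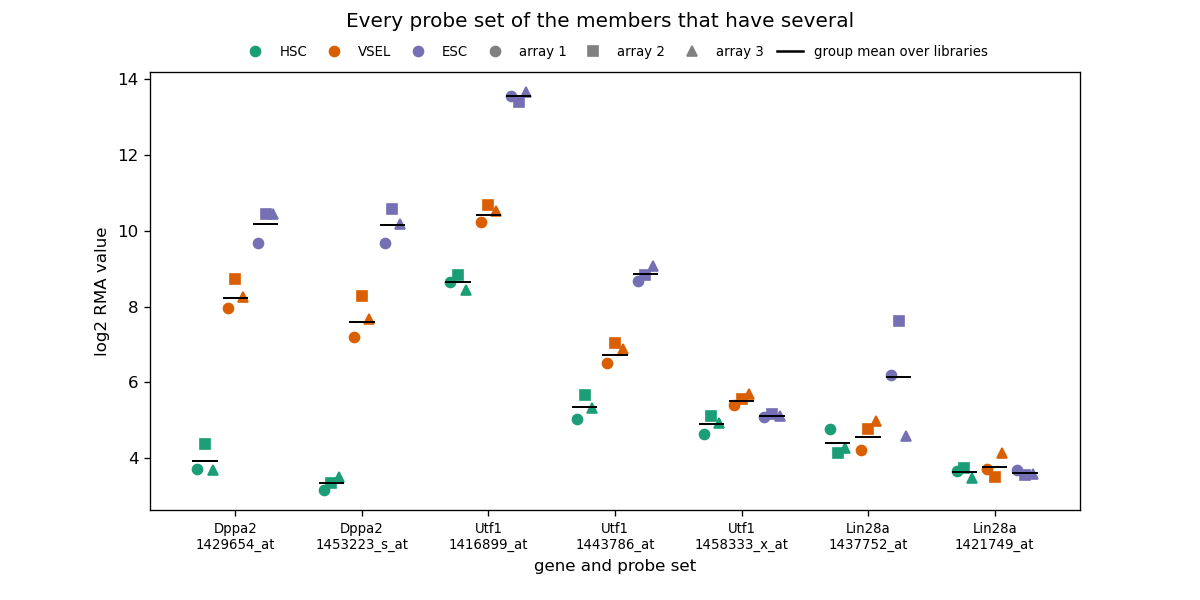
Log2 RMA value (vertical axis) on the 9 arrays for each probe set of Dppa2, Utf1 and Lin28a, the members with several; colours, symbols and bars are as for the plot of members by array. Both Dppa2 probe sets and 2 of 3 Utf1 probe sets order the cell types alike, whereas Utf1 1458333_x_at and Lin28a 1421749_at stay below 6 on every array.

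L1td1 (1457314_at) read 8.79, 8.99 and 8.60 in VSEL, 4.23, 3.84 and 5.40 in HSC, and 11.62, 11.75 and 11.84 in ESC. VSEL 1 and VSEL 2+3 were almost equal for this gene, with a gap of -0.0023, and HSC had the widest spread (SD 0.81, n = 3). VSEL minus HSC was 4.30 (SE 0.43, limma adjusted p = 0.00253) and VSEL minus ESC was -2.94 (SE 0.43, adjusted p = 0.0111). Tcl1 (1422458_at) read 7.81, 8.59 and 8.31 in VSEL, 4.17, 4.75 and 4.64 in HSC, and 11.09, 11.19 and 10.47 in ESC. For Tcl1 the differences were 3.61 (SE 0.32, adjusted p = 0.00151) from HSC and -2.79 (SE 0.32, adjusted p = 0.00492) from ESC. Neither gene overlapped between cell types.

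Dppa3, the Stella gene, was the member whose VSEL values came nearest to those of ESC. Probe set 1424295_at read 6.36, 7.11 and 6.99 in VSEL, 5.40, 5.57 and 5.51 in HSC, and 6.57, 8.40 and 6.47 in ESC. All VSEL arrays were above all HSC arrays, as were 37.7% of genes by library, while VSEL and ESC overlapped, with ESC 2 high and ESC 1 and ESC 3 within the VSEL range. All HSC values and VSEL 1 were below the olfactory receptor percentile of their arrays, and VSEL 2, VSEL 3 and the ESC arrays above it. Dppa3 was not called against HSC (difference 1.21, SE 0.59, limma adjusted p = 0.208) or against ESC (-0.45, SE 0.59, adjusted p = 0.642). The sign against ESC turned to 0.18 without ESC 2, to 0.058 after another quantile normalization and to 0.062 with arrays centred on ribosomal proteins. HSC minus ESC was -1.65 (SE 0.53, adjusted p = 0.128) and was not called either, although every HSC library lay below every ESC library, as for 21.5% of genes.

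Lin28a, the let-7 regulator, was below the olfactory receptor percentile on every VSEL and HSC array. Probe set 1437752_at read 4.22, 4.76 and 4.99 in VSEL, 4.76, 4.14 and 4.28 in HSC, and 6.21, 7.63 and 4.59 in ESC. ESC 1 and ESC 2 stood above the olfactory receptor percentile and ESC 3 did not, so ESC had the widest spread (SD 1.52, n = 3) and overlapped both other cell types. The other probe set, 1421749_at, lay between 3.48 and 4.13 on all 9 arrays. VSEL minus HSC was 0.15 (SE 0.82, limma adjusted p = 0.907) and VSEL minus ESC -1.59 (SE 0.82, adjusted p = 0.229). HSC minus ESC, -1.75 (SE 0.73, adjusted p = 0.245), became -2.53 and was called without ESC 3 (adjusted p = 0.0383). At this spread no Lin28a difference between VSEL and HSC was detectable, which does not show that the levels are equal.

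**Figure D3:**
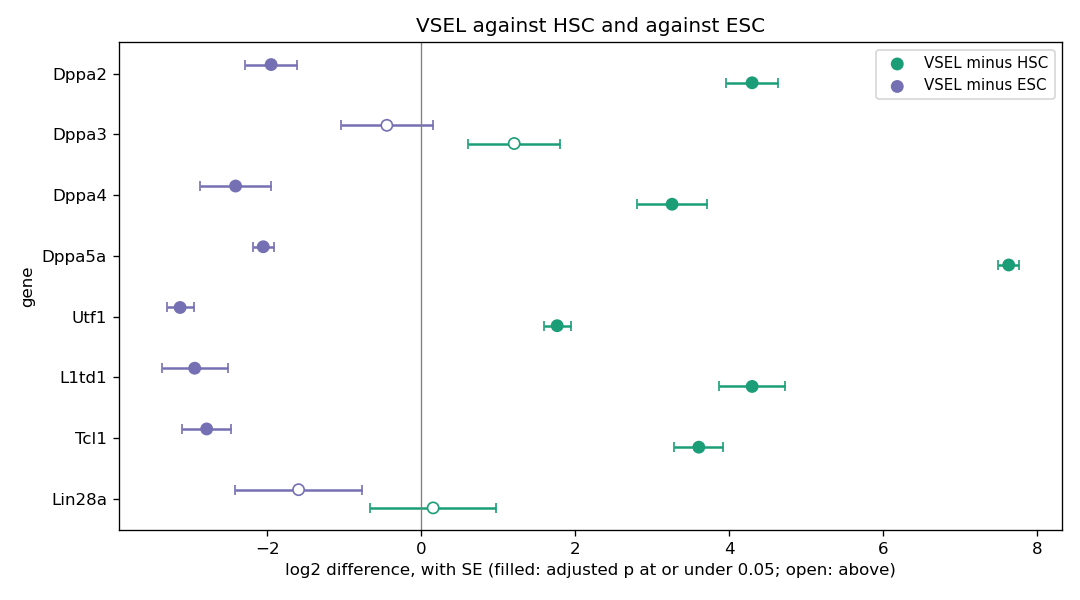
Log2 difference (horizontal axis) of VSEL from HSC in green and from ESC in purple for the 8 genes, with bars of 1 SE from limma; filled points were called at an adjusted p of 0.05 and open points were not. The 6 called genes lie between 1.77 and 7.64 against HSC and between -3.13 and -1.95 against ESC, and Dppa3 and Lin28a are open in both.

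The distance of VSEL from the ESC mean was read in each VSEL library. In VSEL 1 the offset from ESC was -2.21 for Dppa2, -2.48 for Dppa4, -2.19 for Dppa5a, -3.32 for Utf1, -2.95 for L1td1 and -3.11 for Tcl1. In VSEL 2+3 the same genes gave -1.70, -2.34, -1.92, -2.95, -2.94 and -2.47 in that order. On the linear scale these offsets are 10.0% to 21.9% of the ESC level in VSEL 1 and 13.0% to 30.9% in VSEL 2+3. Dppa3 was at -0.79 in VSEL 1 and -0.10 in VSEL 2+3. Lin28a was at -1.92 and -1.27, but its VSEL values were below the olfactory receptor percentile, so these are distances from a level not told from background.

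These offsets were set beside other genes high in ESC over HSC, taken by a rule without VSEL values: the lowest ESC value more than 3 above the highest HSC value and an ESC mean above 10. The rule took 133 genes, of which Dppa2, Dppa4, Dppa5a, Utf1, L1td1 and Tcl1 are 6. The other 127 had a median offset of -2.56 in VSEL 1 (quartiles -2.78 and -2.29) and of -2.58 in VSEL 2+3 (quartiles -2.85 and -2.24). Those medians are 17% and 16.8% of the ESC level. All 6 members lay within 1 log2 unit of the median of the others in both libraries, as did 88.2% and 91.3% of the others. By this measure the 6 genes stood where most genes high in ESC stood, and nothing in it was particular to them. The offsets depend on scaling, since the median over the 8 members was -2.34 in VSEL 1 and -2.13 in VSEL 2+3 as deposited, but -1.80 and -1.66 with arrays centred on ribosomal proteins.

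**Figure D4:**
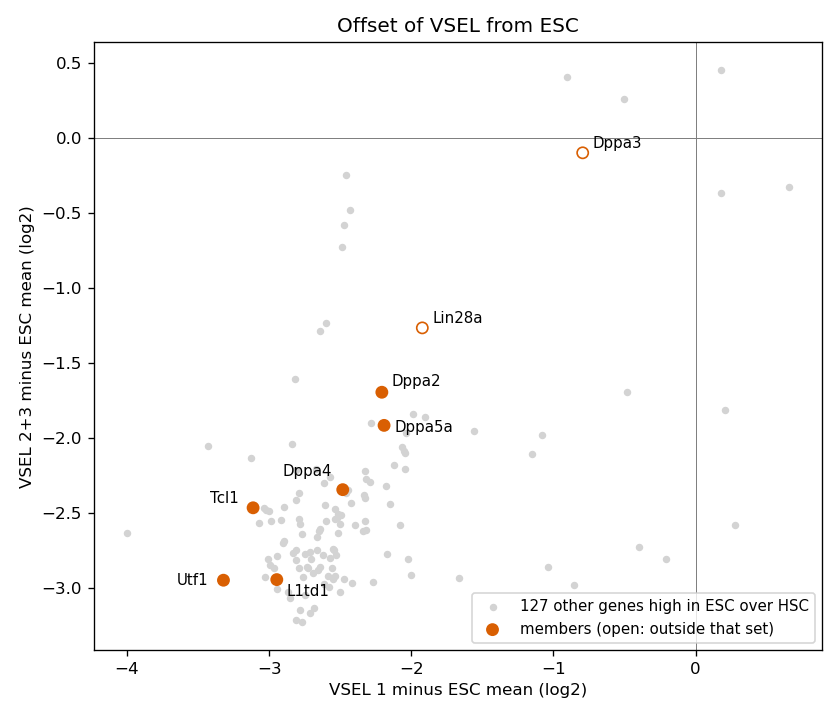
Difference of VSEL 1 (horizontal axis) and of VSEL 2+3 (vertical axis) from the ESC mean, in log2 units, for the 8 genes in orange and for 127 other genes high in ESC over HSC in grey; open points are members outside that set. The 6 filled members lie between -3.32 and -2.19 in VSEL 1 and between -2.95 and -1.70 in VSEL 2+3, among the bulk of the grey points, and Dppa3 lies apart at -0.79 and -0.10.

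All 8 members were lower in VSEL 1 than in VSEL 2+3, by gaps of -0.0023 for L1td1 to -0.69 for Dppa3, and 51.7% of all genes were lower there too. The median size of the gap over all genes was 0.335. Even so, r of VSEL 1 over probe sets was 0.838 with VSEL 2 and 0.83 with VSEL 3. With the HSC and ESC arrays it was 0.805 to 0.855, so VSEL 1 was no more like the other VSEL arrays than like other cell types. Pairs within HSC had r from 0.927 to 0.947 and pairs within ESC from 0.952 to 0.957. Summed levels of blood cell marker lists also differed between VSEL 1 and the other VSEL arrays. The log2 summed level of 8 leukocyte genes was 13.24 in VSEL 1 and 15.52 and 15.61 in VSEL 2 and 3, while HSC lay between 16.26 and 16.39 and ESC between 8.82 and 9.17. The 5 measured erythroid genes summed to 15.66 in VSEL 1, to 14.11 and 14.08 in VSEL 2 and 3 and to 10.50 to 11.66 in HSC.

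Markers that define the cell types were read on the same arrays. Ptprc, which encodes the CD45 of the sorting gate, was at 3.24 to 3.59 on the VSEL arrays, 13.40 to 13.68 on the HSC arrays and 2.94 to 3.17 on the ESC arrays, which follows the sorting gates. All 6 embryonic stem cell markers (Pou5f1, Nanog, Sox2, Zfp42, Esrrb and Tdgf1) were called higher in VSEL than in HSC and lower than in ESC. Over all genes the shares were 9.29% and 10.3%. The log2 summed level of the 6 markers lay between 11.91 and 12.36 in VSEL, between 6.36 and 6.58 in HSC and between 14.93 and 15 in ESC. In HSC all 6 lay below the olfactory receptor percentile of every array, and in VSEL and ESC none did. The 8 neutrophil genes had sums from 16.04 to 17.60 in VSEL, from 16.76 to 16.94 in HSC and from 8.14 to 8.85 in ESC, and the 5 B lineage genes from 13.51 to 14.79, from 11.08 to 13.32 and from 7.64 to 8.58. The 5 T and NK genes had sums from 8.0 to 11.49 in VSEL, from 14.13 to 14.89 in HSC and from 7.62 to 7.67 in ESC. The VSEL range followed Nkg7, at 4.95, 11.11 and 11.35 on VSEL 1, 2 and 3. Cd3e read 7.12 to 7.38 there, and Cd3d, Cd3g and Klrd1 were below the olfactory receptor percentile on every VSEL array. Of the 6 measured haematopoietic stem cell markers (Kit, Cd34, Slamf1, Procr, Meis1 and Mecom), 2 to 3 were below the olfactory receptor percentile on each HSC array. On VSEL 1, 2 and 3 the number below it was 5, 4 and 4, and on ESC 1, 2 and 3 it was 4, 3 and 4. The summed level of these markers was 8.52 in VSEL 1, 10.81 and 10.85 in VSEL 2 and 3, between 9.21 and 10.11 in HSC and between 9.94 and 10.63 in ESC. Such a sum follows its highest genes. Cd34 read 4.53 in VSEL 1 but 10.57 and 10.59 in VSEL 2 and 3, and Kit read 9.47 to 10.37 in ESC. Embryonic stem cell markers thus moved with the 6 members, and their part in the result was not tested. The part of the blood cell markers was not tested either.

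**Figure D5:**
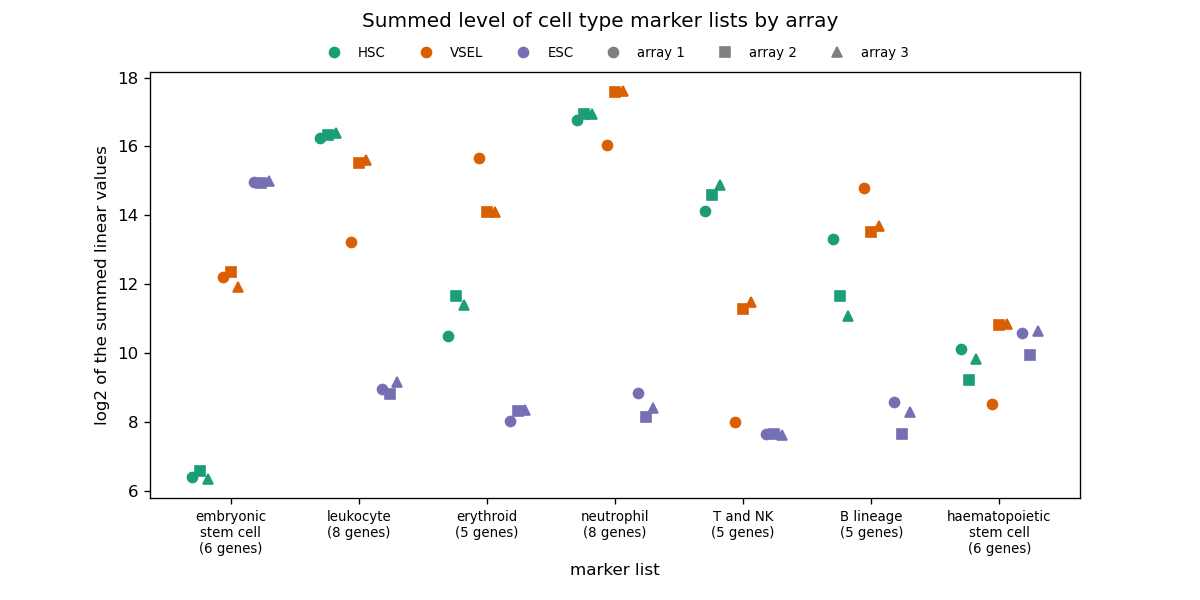
Log2 of the summed linear values (vertical axis) of 7 marker lists on the 9 arrays; colour gives the cell type and the symbol the array number, and the number of measured genes stands under each list. The embryonic stem cell list of VSEL lies at 11.91 to 12.36 between HSC and ESC, while for the other 6 lists VSEL 1 stands apart from VSEL 2 and 3, lower for leukocyte, neutrophil, T and NK and haematopoietic stem cell genes and higher for erythroid and B lineage genes.

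Genes that work with the members were read from lists chosen by function. Of 13 measured pluripotency genes outside the 8, 13 were called higher in VSEL than in HSC and 13 lower than in ESC. They include all 6 embryonic stem cell markers given above, so the counts of these lists are not separate results. The shares over all genes were 9.29% and 10.3%. Zfp42, the marker of undifferentiated cells, was at 7.50 from HSC and -2.62 from ESC, and the core factor Pou5f1 at 6.49 and -3.01. Tdgf1, a co-receptor of Nodal, gave 5.94 and -2.70, and Nanog, a core factor of pluripotency, 5.36 and -2.90 (limma adjusted p of at most 0.00199 for these 4 genes in both comparisons). These lists were drawn up with earlier results of the data known and are no independent evidence.

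Of 12 measured genes of the Lin28 and let-7 axis, 2 were called higher in VSEL than in HSC and 0 lower by limma, while 6 had an unadjusted p under 0.05. Of all genes, 9.29% were called higher and 9.04% lower. Against ESC 1 was higher and 2 lower, where 7.59% and 10.3% of all genes were. Mycn, a let-7 target and growth regulator, was higher than in HSC by 3.30 (SE 0.49, limma adjusted p = 0.0112) and lay at -2.53 from ESC (adjusted p = 0.0247). Hmga2, a chromatin protein under let-7 control, was higher than in HSC by 1.46 (adjusted p = 0.0431) and was not called against ESC (-1.12, adjusted p = 0.0817). On every VSEL and HSC array Hmga2 lay below the olfactory receptor percentile, so its call compares levels not told from background. Tut7, a uridylyltransferase that acts on let-7 precursors, was at 1.57 from HSC (adjusted p = 0.0567) and was called higher than in ESC by 3.82 (adjusted p = 0.00447). Dicer1, which cuts microRNA precursors, was at 2.27 from HSC (adjusted p = 0.218).

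Of 6 measured relatives of Tcl1 and partner kinases, 1 was called higher in VSEL than in HSC and 1 higher than in ESC, where 9.29% and 7.59% of all genes were. Tcl1b4, a paralogue, was higher than in HSC by 0.60 (limma adjusted p = 0.034), and Tcl1b3 was at -0.25 (adjusted p = 0.366). Tcl1b4 read 7.13 to 7.47 in VSEL and 6.61 to 6.76 in HSC, and the olfactory receptor percentile was also higher in VSEL than in HSC. Akt1, the kinase that Tcl1 activates, was at 0.60 from HSC (adjusted p = 0.329) and higher than in ESC by 1.62 (adjusted p = 0.0462). All 4 measured genes of the 2-cell embryo lay below the olfactory receptor percentile on all 9 arrays, so a change at such levels may not be detectable. Of these 4, among which are targets of Dppa2 and Dppa4, 0 were called in the 3 comparisons by limma, and at an unadjusted p under 0.05 there were 0 when VSEL was set against HSC, 0 when it was set against ESC and 1 when HSC was set against ESC. Duxf3 was at 0.26 from HSC and Zfp352 at 0.36 (adjusted p = 0.307 and 0.198).

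Among relatives of Dppa5a with KH domains, 1 of 4 was called higher in VSEL than in HSC, where 9.29% of all genes were, and 1 lower than in ESC, where 10.3% were. The same shares of all genes apply to the lists that follow. Ooep, an oocyte protein gene, was higher than in HSC by 3.36 (SE 0.38, limma adjusted p = 0.00403) and lay at -2.44 from ESC (adjusted p = 0.0132). Khdc3 was at 0.84 from HSC (adjusted p = 0.0976) and Khdc1b at 0.078 (0.656). In the list of DNA methylation genes and partners of Dppa3, 3 of 10 were called higher than in HSC and 4 lower than in ESC. Dnmt3l, the cofactor of the de novo methyltransferases, was higher than in HSC by 2.81 (adjusted p = 0.000324), Dnmt3a, one of those enzymes, by 1.47 (adjusted p = 0.0305), and Zfp57, which guards imprints, by 0.75 (adjusted p = 0.0175). Zfp57 lay below the olfactory receptor percentile on every VSEL and HSC array, so its call compares levels not told from background. Dnmt1, the maintenance enzyme, was at 1.13 (limma adjusted p = 0.145), and Trim28, a co-repressor, at -0.31 (adjusted p = 0.254). Dnmt1 read 11.20 in VSEL 1 and 12.93 and 12.98 in VSEL 2 and 3, against 10.83 to 11.02 in HSC. Of 8 primordial germ cell genes 2 were called higher than in HSC and 6 lower than in ESC. Alpl, the alkaline phosphatase of germ and stem cells, was higher than in HSC by 2.36 (adjusted p = 0.0221) and Tfap2c, a germ cell transcription factor, by 1.16 (adjusted p = 0.0458). Like Zfp57, Tfap2c lay below the olfactory receptor percentile on every VSEL and HSC array. The interferon-induced membrane protein genes Ifitm3 and Ifitm1 were at -1.08 and 0.039 (adjusted p = 0.445 and 0.973).

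In HSC against ESC, the comparison without VSEL, 6.38% of all genes were called higher in HSC and 8.89% lower. All 13 pluripotency genes, 4 of 12 genes of the Lin28 list, 7 of 10 of the methylation list, 5 of 8 germ cell genes and Ooep were called lower in HSC, and 1 of the Lin28 list (Tut7, by 2.25, limma adjusted p = 0.0127) was called higher. By library, 22.8% of all genes had every VSEL value below every ESC value.

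Some members lie next to each other or to other embryonic genes in the order of protein-coding genes in RefSeq GRCm38.p6. Dppa4 and Dppa2 are neighbours, and Morc1, a germ cell chromatin gene, follows Dppa2. Morc1 lay at 6.55 ± 0.61 in VSEL (SD, n = 2), 3.35 ± 0.033 in HSC (n = 3) and 9.14 ± 0.43 in ESC (n = 3), and was called higher than in HSC and lower than in ESC (limma adjusted p = 0.0027 and 0.00679). Dppa3 lies between Gdf3, a growth factor gene, and Nanog, which were called higher than in HSC by 2.41 and 5.36 (adjusted p = 0.000477 and 1.79e-05). Gdf3 has the same deposited value, 7.43, on all 3 VSEL arrays. Dppa5a is followed by Ooep, described above, and preceded by Gsta2, which was not called (0.020, adjusted p = 0.993). The neighbours of L1td1, Patj and Kank4, were not called against HSC (adjusted p = 0.305 and 0.84), nor were those of Lin28a, Dhdds and Crybg2 (0.773 and 0.0977). Kndc1 before Utf1 was higher by 0.49 (limma adjusted p = 0.0399), and Spef1l after it was at 0.48 (adjusted p = 0.0874). Kndc1 read 6.36 to 6.72 in VSEL and 6.02 to 6.11 in HSC, not far above the olfactory receptor percentile. That percentile was itself higher in VSEL, at 6.27 to 6.45 against 5.58 to 5.85 in HSC. Tcl1 is preceded by Tcl1b4, given above, and followed by D430019H16Rik (0.34, adjusted p = 0.742).

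Likeness was measured by Pearson's r over the 8 libraries, as a description, among 6255 genes outside the 8 whose values spanned at least 3 log2 units. The genes most like the mean of the 8 members were Cobl, Fbxo15, Sox2, Tfcp2l1 and Lamb1, with r of 0.998, 0.997, 0.997, 0.997 and 0.997. Each of these 5 had its highest mean in ESC and its lowest in HSC, and the points share the 3 cell types. Singly, the best match of Dppa2 was Eras (r = 0.995), that of Dppa4 Slc7a3 (0.998), of Dppa5a Zfp42 (0.999), of Utf1 Mybph (0.997), of L1td1 Acta1 (0.998) and of Tcl1 Hspb1 (0.999). For Dppa3 the best match was Shroom2 (0.986) and for Lin28a Trim63 (0.964). Against the mean of the other 7 members, r was 0.954 to 0.994 for the 6 called genes, 0.82 for Dppa3 and 0.656 for Lin28a.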

How the data were processed

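RNA of 20 sorted cells per library was amplified and hybridised to Affymetrix mouse arrays, 3 each of VSEL, HSC and ESC. The deposited values are log2 RMA expression values per probe set, made by the authors with Partek 6.5 per the submitters' processing notes. Not given in the sources used here were a genome build and the settings of RMA. RMA compresses differences near background, and arrays give no read depth, so the number of libraries limits the precision.

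Control probe sets were left out, and 45037 probe sets remained. GEO's platform annotation listed 35877 of them, 34945 with 1 gene, 932 with several (not named) and 9160 were not listed; symbols were updated to RefSeq GRCm38.p6. A linear model with moderated variances (limma 3.58.1, R 4.3.3, 5 residual degrees of freedom) was fitted to all 8 libraries, two-sided, with Benjamini-Hochberg adjustment over all probe sets in a comparison and a call at 0.05. In each list chosen by function, up to 4 genes with the largest called differences from HSC and up to 2 with the highest level among those not called are named. The fit was tested on simulated data in which all libraries of a probe set had the same spread. Unequal spread between the groups was not simulated. The members and lists were chosen with earlier results of these data known. Alternatives were other normalizations, filters, probe set rules, fits and leaving out each library. List genes without a probe set assigned to them alone, such as Dppa1 and Zscan4c, were not analysed here.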

Additional observations from a re-analysis of the deposited data

How the results depend on the processing

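VSEL against HSC called 6 members in each of the 15 alternative settings that keep the probe set choice, and 5 with each member's lowest-mean probe set. VSEL against ESC called 4 to 6 and HSC against ESC 5 to 7. Dppa5a, Utf1, L1td1 and Tcl1 kept their call against ESC in 15 of 15 settings other than that probe set choice, Dppa2 in 11 and Dppa4 in 9. The members' median offset from the ESC mean became -2.10 (VSEL 1) and -1.87 (VSEL 2+3) after another quantile normalization, and -1.80 and -1.66 with arrays centred on ribosomal proteins. Reversed signs concerned members that were not called, or another probe set. Lin28a in VSEL minus HSC was -0.040 after quantile normalization, -0.20 after cyclic loess and -0.17 to 0.48 over the fits that leave out 1 library. Dppa3 in VSEL minus ESC was 0.058 after quantile normalization, 0.062 with ribosomal centring and -0.79 to 0.18 on leaving out 1 library. With the lowest-mean probe set Utf1 was 0.40 and Lin28a 0.15 in VSEL minus ESC, and Lin28a 0.014 in HSC minus ESC, while Utf1 lost its call against HSC (limma adjusted p = 0.0542). Ribosomal centring moved the median of all genes to 0.53 for VSEL minus HSC and 0.62 for VSEL minus ESC, and the share of called genes that were higher from 50.7% to 75.5% and from 42.4% to 79.7%. That share was 62.8% and 59.2% after quantile normalization, and 57.3% for VSEL against ESC after cyclic loess. The percent of all genes called, 18.3% for VSEL against HSC, was 7.95% in a fit of these groups alone and 38.6% with ribosomal centring. The percent for VSEL against ESC, 17.9%, was 8.65% without ESC 2 and 49.7% with ribosomal centring. The cause of these shifts was not tested. A fit of the 9 separate arrays with the replicate number as a replicate block called 6 members in each comparison. Deviations of same-numbered arrays from their group means correlated at -0.088 to 0.156, and those of differently numbered arrays at -0.15 to 0.124. Deviations within a group are tied to each other through its mean. These values therefore cannot show whether same-numbered arrays share anything beyond a number.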
